A study of Mus musculus with 6 samples.

Results

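Lymphoid priming and B-lineage genes were followed in hematopoietic stem cells (HSCs), the cells of the bone marrow from which all blood lineages arise. The set was chosen by name and holds 9 genes: Flt3, Ikzf1, Satb1, Il7r, Dntt, Ighm, Cd79a, Cd79b and Cd52. Of these, 8 are among the 19978 genes of the table, and Satb1 was not analysed here. The study set 3 wild-type (WT) libraries against 3 with the label Piezo1 cKO, for conditional knockout, Piezo1 being a cation channel opened by mechanical force. Each library was made from 100 HSCs sorted from mouse bone marrow. The labels give no Cre driver, strain, age or agent for either genotype, nor do they tie a library to a mouse, so p-values reflect spread among libraries that may be technical replicates. In the paragraphs below "cKO" means labelled Piezo1 cKO. Piezo1 itself did not separate the genotypes, with FPKM 0.539, 3.97 and 1.57 in WT 1, 2 and 3 beside 0.175, 8.81 and 0.819 in cKO 1, 2 and 3. Its lowest and its highest value were both in cKO, so every direction rests on the labels.

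Lymphoid priming is the low expression, in early multipotent progenitors, of genes that later serve lymphocytes. FLT3 and the interleukin-7 receptor are cytokine receptors of early lymphoid progenitors, IKAROS (Ikzf1) is a zinc-finger factor needed for lymphoid fate, and terminal deoxynucleotidyl transferase (Dntt) adds untemplated bases at the joints of rearranging antigen receptor genes. Once a B cell precursor makes an immunoglobulin heavy chain of the mu class (Ighm), that chain reaches the surface with a signalling pair, CD79A and CD79B, which needs both partners. In the mouse, most HSCs are sorted as cells low in FLT3, and commitment to the B lineage depends on the factors E2A (Tcf3), EBF1 and PAX5.

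The libraries differed widely in depth and in makeup. Total counts ran from 3907259 in WT 3 to 72116120 in cKO 2, an 18.5-fold range, with WT 1 at 18035239, cKO 1 at 31252820, WT 2 at 64794532 and cKO 3 at 69972499. Of 16 HSC surface and factor genes, 11 reached an FPKM (fragments scaled to transcript length and to the library total) of 5 in some library. They numbered 3, 9 and 1 per library in WT 1, 2 and 3 and 5, 9 and 7 in cKO 1, 2 and 3, and their summed FPKM was 48.2 to 1500 in WT and 352 to 578 in cKO. Tek and Cd34 stayed at 84 counts or fewer in all 6 libraries. WT 3 and WT 1 were thus the shallowest libraries and showed few of these genes, and fold changes of the 3 receptor genes are also given without them.

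Each of the higher levels in the set came from 1 library, and it was a different library for Flt3, for Cd79b, and for the pair Ikzf1 and Cd52. Flt3 was read in cKO 1, Cd79b in WT 2, and Ikzf1 and Cd52 in cKO 2. Il7r, Dntt, Cd79a and Ighm stood on 522 counts or fewer in all 6 libraries. In the quasi-likelihood test of edgeR, with p adjusted over all 4173 genes tested, 0 members passed 0.05, as did 0% of all genes, and 287 of all genes had an unadjusted p under 0.05.

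**Figure D1:**
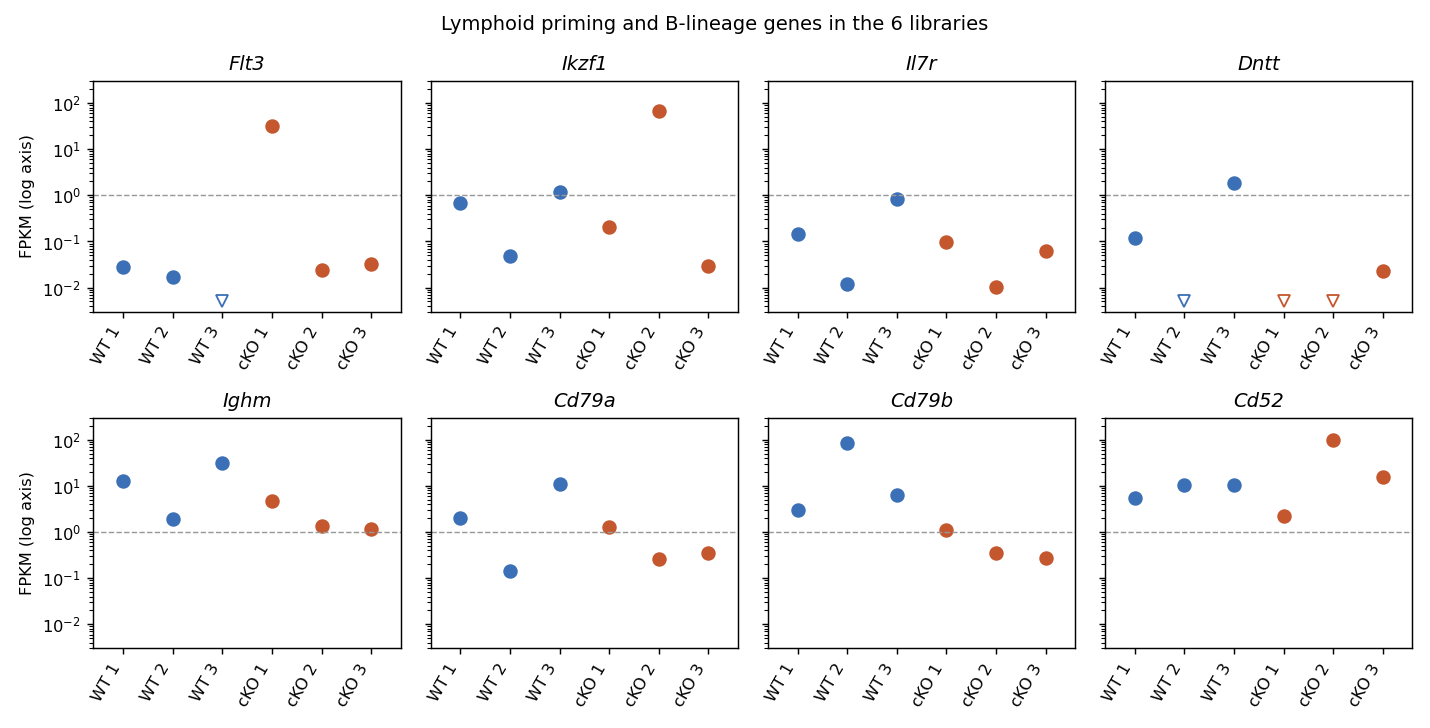
FPKM (log axis) of 8 genes in each of the 6 libraries, WT in blue and labelled Piezo1 cKO in orange; open triangles are values of 0, drawn at the foot of the axis, and the dashed line is an FPKM of 1. Flt3, Ikzf1 and Cd79b each have 1 library that stands at least 13.2 times above the next, and Cd52 has 1 that stands 6.39 times above the next.

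Flt3 (ENSMUSG00000042817; chromosome 5, 147330741 to 147400489, minus strand) had FPKM values of 0.0280, 0.0173 and 0 in WT 1, 2 and 3, on 4, 8 and 0 counts. In cKO 1, 2 and 3 it had 31.3, 0.0237 and 0.0327, on 7222, 12 and 16 counts. A single cKO library therefore held 99.7% of the summed FPKM, at 956 times the next value, and the genotypes overlapped on the FPKM scale. They also overlapped in counts scaled to the library total (CPM), where cKO 2 had 0.166 and WT 1 had 0.222. Raw counts, not scaled to depth, did not overlap, with at most 8 in WT and at least 12 in cKO. The 0 in WT 3 is a count in the shallowest library, where the limit that a count of 0 allows (3 counts) is 0.768 CPM. That limit and those given for Dntt cover counting error only, since the reads carry no molecular identifiers.

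Because it reached an FPKM of 1 in 1 library, Flt3 did not pass the filter on low values, which asked for 3 or more libraries at an FPKM of 1 or higher. In the fit without that filter its log2 fold change (cKO over WT) was 10.33 (SE 4.13, edgeR, adjusted p = 0.275). In that fit 11.6% of all genes had an unadjusted p under 0.05 and 0.816% passed after adjustment.

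Ikzf1 (ENSMUSG00000018654; chromosome 11, 11685003 to 11772926, plus strand) was likewise carried by 1 library, but not the one that carried Flt3. Its FPKM was 0.666, 0.0490 and 1.19 in WT 1, 2 and 3, on 83, 21 and 38 counts. In cKO 1, 2 and 3 it was 0.208, 68.3 and 0.0299, on 45, 31420 and 14 counts. The library cKO 2 held 97.0% of the summed FPKM, and cKO 3 was the lowest of all 6 libraries. Ikzf1 did not pass the filter either, with 2 libraries at an FPKM of 1, and without the filter its log2 fold change was 7.23 (SE 3.39, edgeR, adjusted p = 0.390). The cKO 1 library, at 7222 counts of Flt3, had 45 of Ikzf1, and cKO 2, at 31420 counts of Ikzf1, had 12 of Flt3.

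A level held mostly by 1 library was common in this table. Of the 7456 genes that reached an FPKM of 5 in some library, 29.1% had at least 90% of their summed FPKM in 1 library. Of the 6 members that reached 5, Flt3 and Ikzf1 did so, and Cd79b followed at 88.4%. Such genes numbered 690 in WT 2, 487 in cKO 2, 501 in cKO 3 and 265 in cKO 1, and 124 and 102 in WT 1 and WT 3.

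Il7r (ENSMUSG00000003882; chromosome 15, 9505788 to 9530176, minus strand), the ligand-binding chain of the interleukin-7 receptor, stayed at or under 23 counts. Its FPKM was 0.148, 0.0117 and 0.814 in WT 1, 2 and 3 and 0.0956, 0.0101 and 0.0622 in cKO 1, 2 and 3. These values stood on 15, 4 and 21 counts in WT and 17, 4 and 23 in cKO, so the counts of the genotypes ran over the same range. The signalling chain that pairs with it, the common gamma chain Il2rg, behaved differently and stood at FPKM 0.651, 4.42 and 4.22 in WT against 453, 159 and 46.3 in cKO. Each cKO value lay above each WT value, which holds, with cKO higher, for 6.37% of genes tested. Its log2 fold change was 6.66 (SE 2.84), and it did not pass (edgeR, adjusted p = 0.692, unadjusted p = 0.0192).

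The list of FLT3 and interleukin-7 receptor signalling genes had 17 of its 19 genes in the table and 10 tested, of which 0 passed and 1, Il2rg, had an unadjusted p under 0.05 in edgeR, against 6.88% of all genes. The list's median log2 fold change was 0.96 beside 1.10 for all genes tested. Mcl1, a survival protein of the BCL2 family, stood at FPKM 37.3, 66.1 and 9.73 in WT and 230, 240 and 163 in cKO. Bcl2 had 44.0, 12.7 and 24.0 in WT and 2.55, 7.80 and 0.126 in cKO, and Socs3, an inhibitor of cytokine signalling, had 118, 2.11 and 1.53 against 0.285, 7.67 and 4.32. These 3 genes did not pass (edgeR, adjusted p = 0.736 for Mcl1 and Socs3 and 0.750 for Bcl2). In a measurement on pooled cells such as this one, fewer cells of a type and less RNA per cell cannot be told apart.

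Dntt (ENSMUSG00000025014; chromosome 19, 41029275 to 41059525, plus strand) was near or at 0. Counts were 7, 0 and 24 in WT 1, 2 and 3 and 0, 0 and 4 in cKO 1, 2 and 3, which gave FPKM values of 0.122, 0 and 1.88 in WT and 0, 0 and 0.0224 in cKO. A count of 0 allows up to 0.0463 CPM in WT 2, 0.0960 in cKO 1 and 0.0416 in cKO 2. The value in WT 3 is the highest of the 6 and stands on 24 counts in the library with the fewest reads. Without the filter the log2 fold change was -3.98 (SE 2.01, edgeR, adjusted p = 0.428).

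The list for end joining, the repair pathway in which the Dntt enzyme works, had 10 genes in the table. Of these, 4 stayed under 100 counts in every library, against 54.3% of all genes. The 1 tested was Pcna, the sliding clamp of DNA replication, so its level is not a measure of end joining. Pcna stood at FPKM 7.18, 469 and 7.43 in WT and 504, 244 and 618 in cKO (edgeR, adjusted p = 0.754). Polm, a polymerase related to the Dntt enzyme, had 31.7 in WT 2 and 0.371 or less elsewhere, so its signal and the highest Dntt value were in different libraries.

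The 3 stretches below show the DNA just upstream of the start of Flt3, the member with the most uneven levels, and of Dntt and Cd79a, 2 genes at 89 counts or fewer in all 6 libraries. They are RefSeq sequence on GRCm38.p6, read 5′ to 3′ on the strand of the gene, and end before the gene start in the deposited table. Capitals mark each E-box of the form CANNTG, the core bound by E2A proteins, which reads the same on both strands.
Flt3, chr5:147400490-147400739, minus strand: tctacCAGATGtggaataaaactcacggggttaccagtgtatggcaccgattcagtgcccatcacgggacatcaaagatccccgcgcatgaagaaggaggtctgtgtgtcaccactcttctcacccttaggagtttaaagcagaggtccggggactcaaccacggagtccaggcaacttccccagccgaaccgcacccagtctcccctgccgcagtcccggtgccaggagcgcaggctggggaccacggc
Dntt, chr19:41029025-41029274, plus strand: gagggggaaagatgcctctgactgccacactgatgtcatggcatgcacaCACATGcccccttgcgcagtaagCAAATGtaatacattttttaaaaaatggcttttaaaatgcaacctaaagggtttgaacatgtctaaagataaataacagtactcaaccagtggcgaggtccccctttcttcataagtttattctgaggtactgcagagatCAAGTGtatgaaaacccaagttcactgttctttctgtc
Cd79a, chr7:24897247-24897380, plus strand: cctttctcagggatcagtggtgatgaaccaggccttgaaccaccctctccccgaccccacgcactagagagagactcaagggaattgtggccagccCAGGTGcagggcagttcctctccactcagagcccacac

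Flt3 held 1 E-box in 250 bases, as did at least 66.2% of all 32851 promoter windows of that length. Dntt held 3, a number reached by 12.2% of windows. Cd79a held 1 in 134 bases, where 45.4% of windows of that length held at least 1. The letters TGGGAA, a core of IKAROS sites, searched on both strands, were in none of these 3 stretches, against 21.6% of all windows of 250 bases and 12.6% of those of 134. Of the 9 members, 6 matched a RefSeq window by symbol, which leaves Ighm, Cd79b and Cd52.

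The mu heavy chain and CD79A had their highest FPKM in WT 3, and CD79B had its highest in WT 2 and its second highest in WT 3. Ighm (ENSMUSG00000076617; chromosome 12, 113418558 to 113422730, minus strand) had FPKM values of 12.8, 1.89 and 31.1 in WT 1, 2 and 3 and 4.61, 1.35 and 1.19 in cKO 1, 2 and 3. The counts behind these values were 522, 259 and 322 in WT and 326, 204 and 175 in cKO, a 2.98-fold range over libraries whose totals differ 18.5-fold. The FPKM of Ighm was highest in the 3 libraries with the lowest totals, in the order WT 3, WT 1 and cKO 1. Its log2 fold change was -2.27 (SE 2.05, edgeR, adjusted p = 0.747), -5.67 without cKO 1 (edgeR, adjusted p = 0.401) and 0.77, a change of sign, without WT 1 and WT 3 (edgeR, adjusted p = 1.00). That last fit leaves WT 2 as the 1 WT library, so its spread comes from the cKO libraries alone, here and for Cd79a and Cd79b.

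Cd79a (ENSMUSG00000003379; chromosome 7, 24897381 to 24902197, plus strand) had the same 3 libraries on top, at lower levels. Its FPKM was 1.98, 0.145 and 11.1 in WT 1, 2 and 3 and 1.26, 0.257 and 0.349 in cKO 1, 2 and 3, on 62, 16 and 89 counts in WT and 69, 30 and 40 in cKO. WT 3, WT 1 and cKO 1 were again the 3 highest, WT 2 was the lowest, and the genotypes overlapped. The log2 fold change was -2.33 (SE 1.59, edgeR, adjusted p = 0.734), -6.08 without cKO 1 (edgeR, adjusted p = 0.388), -0.70 without WT 3 (edgeR, adjusted p = 0.986), and 2.47, a change of sign, without WT 1 and WT 3 (edgeR, adjusted p = 1.00).

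Cd79b (ENSMUSG00000040592; chromosome 11, 106311341 to 106314762, minus strand) departed from its partner in WT 2. Its FPKM was 3.06, 85.8 and 6.50 in WT 1, 2 and 3, on 95, 8891 and 52 counts, and 1.12, 0.356 and 0.271 in cKO 1, 2 and 3, on 61, 41 and 31 counts. Each WT value lay above each cKO value on the FPKM scale, as for 5.18% of genes tested. The same held in CPM, at 5.27, 137 and 13.3 in WT against 1.95, 0.57 and 0.44 in cKO. Raw counts, not scaled to depth, overlapped, since WT 3 had 52 and cKO 1 had 61. In WT 2, where Cd79b had 8891 counts, Cd79a had 16, its lowest number in the 6 libraries.

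Cd79b had the largest fold change among the 4 members tested, at -5.22 on the log2 scale (SE 2.45) (edgeR, adjusted p = 0.692). Its unadjusted p in edgeR was 0.0328, which with a lower level in cKO was reached by 3.47% of genes. DESeq2, the other count test, gave -4.58 (SE 1.39) and passed (adjusted p = 0.0213), as did 3.91% of genes downward in that tool. Without WT 2 the log2 fold change from edgeR was -2.65 (adjusted p = 0.284), and without the lower WT libraries, WT 1 and WT 3, it was -6.75 (adjusted p = 1.00), with 1 WT library left.

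**Figure D2:**
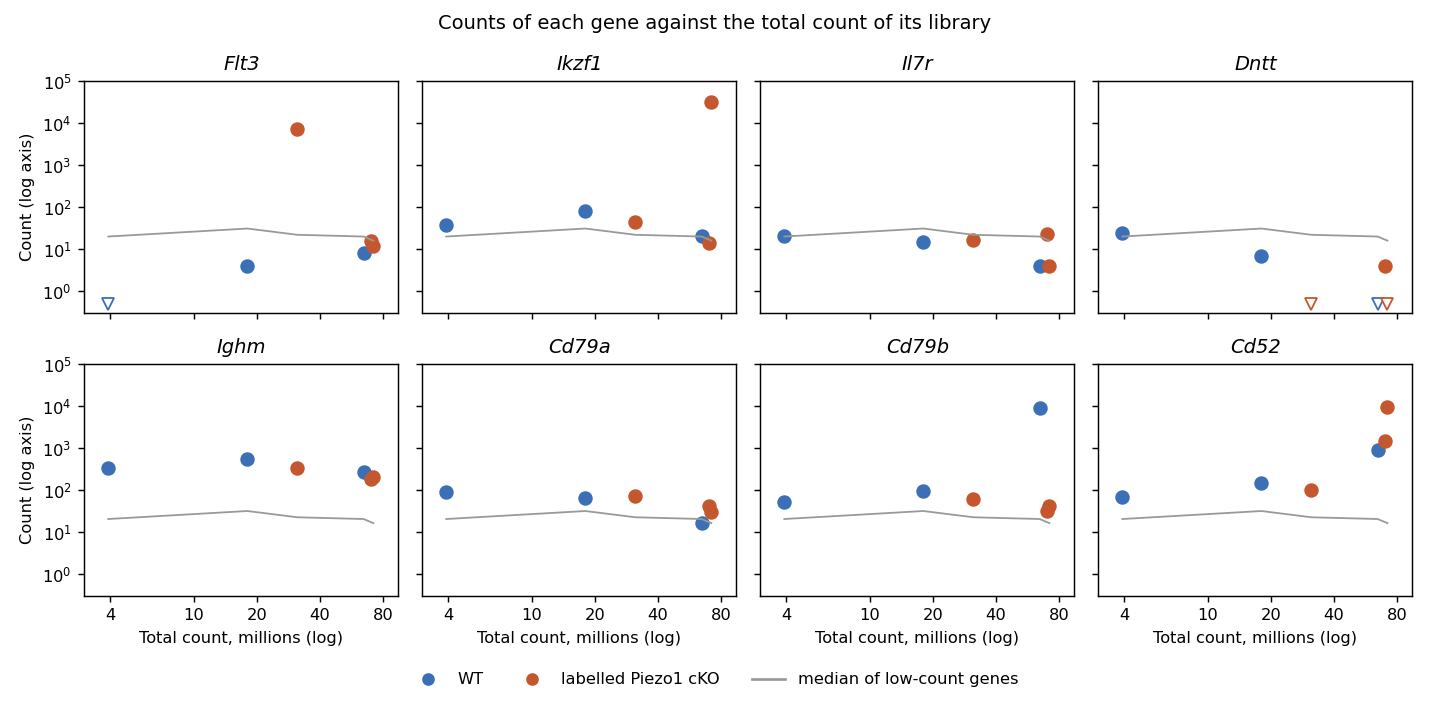
Count of each gene (log axis) against the total count of its library (log axis, in units of 1e+06 counts), WT in blue and labelled Piezo1 cKO in orange, with open triangles for counts of 0 drawn at the foot of the axis. The grey line is the median count of 3157 low-count genes, between 16 and 31. Counts of Ighm, Cd79a and Il7r do not rise along the depth axis, and Flt3, Ikzf1, Cd79b and Cd52 each have libraries far above the grey line.

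Counts of Ighm, Cd79a and Il7r did not rise with depth, over ranges of 2.98-fold, 5.56-fold and 5.75-fold. The median of genes picked for low counts did not rise with depth either. Over the 3157 genes with 1 to 600 counts in each of the 6 libraries, the median count was 31, 20 and 20 in WT 1, 2 and 3 and 22, 16 and 17 in cKO 1, 2 and 3, a 1.94-fold range. At such counts an FPKM is higher in a shallower library, and 2 of the 3 shallowest libraries are WT. The choice of genes at 600 counts or fewer in every library itself limits that range. Depth thus moved with the WT side of Ighm, Cd79a and Il7r, and its part in their differences was not tested. Dntt, with counts of 0 in some libraries, lay outside these genes, and the part of depth in its values was not tested either.

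The genes whose profiles lay nearest to these members were named by the root mean square difference of centred log2(FPKM + 1) over the 6 libraries, with no test. For Ighm they were Spp1 (osteopontin) at 0.136, Ftdc1 at 0.148 and Calm4, a calmodulin-like gene known from skin, at 0.149, where the median gene lay at 2.82. For Cd79a they were Defa29, an intestinal alpha-defensin, at 0.100, Cyp2f2, a cytochrome P450 known from lung, at 0.128, and the kappa variable segment Igkv3-4 at 0.134, against a median of 2.58. Defa29 stood at FPKM 1.61, 0.159 and 10.1 in WT and 1.15, 0.344 and 0.202 in cKO, which sits beside the Cd79a values library by library. For Cd79b the nearest were Creld2, an endoplasmic reticulum protein, at 0.113, the co-chaperone Fkbp4 at 0.144 and the scaffold gene Slc9a3r1 at 0.180, all with their highest FPKM in WT 2, at 79.9, 75.1 and 64.5, and a median gene at 2.75.

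Most other early B-lineage genes stood on few counts. Of 11 early B-lineage genes in the table, 9 stayed under 100 counts in every library, as did 54.3% of all genes in the table. Ebf1 had 8 to 21 counts and Pax5 4 to 27, so both B-lineage commitment factors stayed as low in WT 2, the library with Cd79b, as elsewhere. Vpreb3, which associates with the heavy chain in B cell precursors, had 10703 counts and an FPKM of 156 in cKO 2, against 10 counts or fewer in the other libraries. Cd79b had 41 counts in that library. Ly6d was highest in WT 3, WT 1 and cKO 1, in that order, as were Ighm and Cd79a. Its FPKM was 4.91, 0.926 and 18.6 in WT and 1.79, 0.726 and 0.424 in cKO, on 79 counts or fewer. It did not pass, with a log2 fold change of -2.58 (SE 1.60, edgeR, adjusted p = 0.730). Cd24a, a surface protein of many blood precursors, stood at FPKM 4.86, 4.47 and 10.6 in WT and 183, 118 and 13.5 in cKO (edgeR, adjusted p = 0.730). The summed FPKM of the 11 genes was 5.94 to 35.7 in WT and 14.2 to 275 in cKO, with Igll1 at 0 counts in 5 libraries and 4 in cKO 2.

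**Figure D3:**
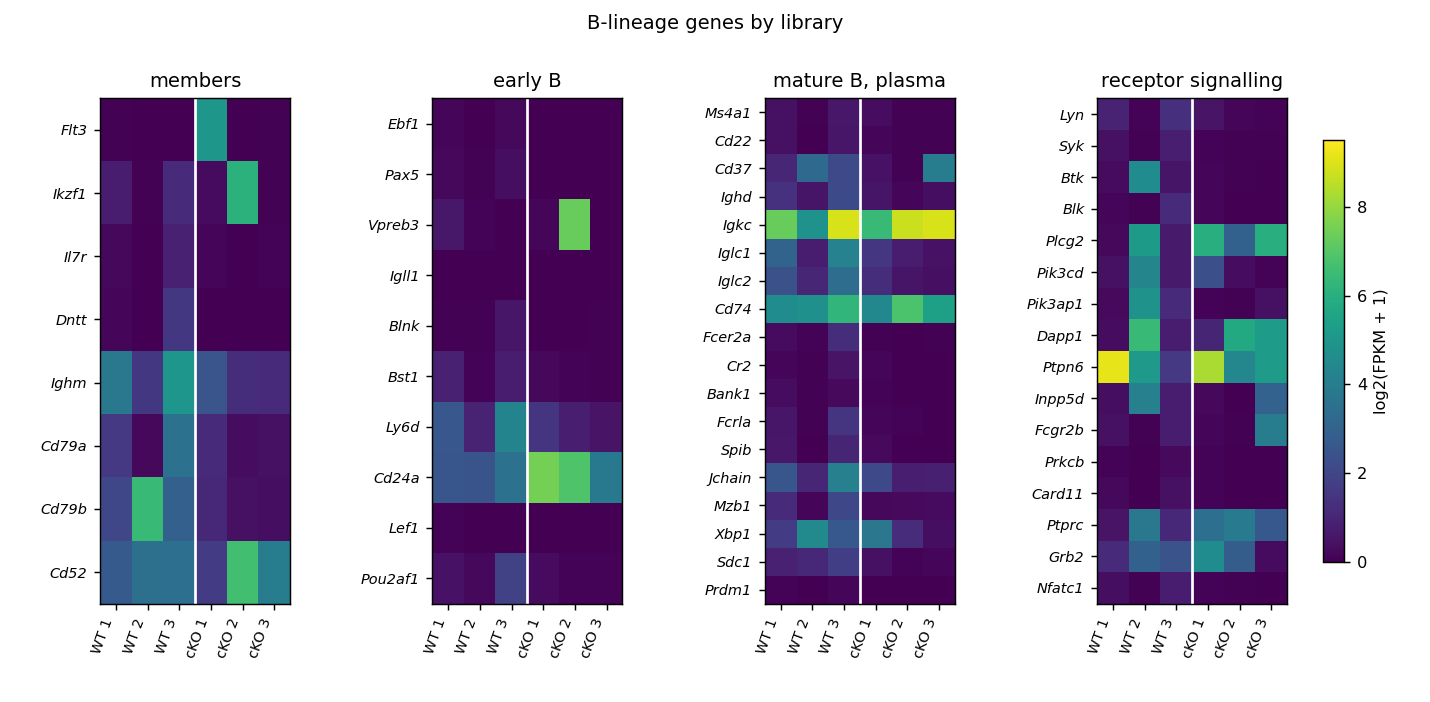
log2(FPKM + 1) by library for the 8 genes and for genes from lists of early B-lineage, mature B and plasma cell, and B cell receptor signalling genes; columns are libraries, with WT left of the white line and labelled Piezo1 cKO right of it. Bright cells for Flt3, Ikzf1, Cd79b and Vpreb3 sit in single libraries, while Ebf1 and Pax5 are dark in all 6.

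Mature B and plasma cell genes had 12 of 18 under 100 counts in every library, and of the 7 tested 0 passed, with a median log2 fold change of -0.52. Igkc, the kappa light chain constant region, was the most abundant, with FPKM values of 155, 27.6 and 484 in WT and 84.4, 426 and 482 in cKO. Its counts were 1775, 1065, 1408 and 1681 in WT 1, 2 and 3 and cKO 1, and 18040 and 19943 in cKO 2 and 3, where Ighm had its lowest counts. Cd74, the invariant chain of antigen presentation, had 23.8, 26.4 and 74.5 in WT and 20.8, 112 and 41.7 in cKO. Neither passed (edgeR, adjusted p = 0.881 for Igkc and 0.886 for Cd74). Iglc1, a lambda light chain constant region, had 7.09, 0.638 and 17.7 in WT and 1.84, 0.702 and 0.393 in cKO, on 70 counts or fewer. It was highest in WT 3, WT 1 and cKO 1, in that order, as was Ighm. Its log2 fold change was -2.66 (SE 1.55), and it did not pass (edgeR, adjusted p = 0.724). The B cell markers Ms4a1 and Cd22 stood at 61 counts or fewer. The summed FPKM of the list was 88.8 to 625 in WT and 127 to 541 in cKO.

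B cell receptor signalling genes, many of which also act in other blood cells, were found more widely, with 10 of 16 at an FPKM of 5 in some library. Of the 5 tested 0 passed, with a median log2 fold change of 1.53. Plcg2, the phospholipase of the pathway, stood at FPKM 0.142, 34.8 and 0.630 in WT and 60.7, 6.65 and 63.2 in cKO. Btk, the kinase that acts with it, had 23.5 in WT 2 and 0.440 or less elsewhere. Syk and Lyn, the kinases that act on the CD79 pair, stayed at 79 counts or fewer. The library with Cd79b thus held Btk and Plcg2 but few counts of Cd79a, Syk and Lyn, with 34 of Syk and 22 of Lyn.

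Among 23 lymphoid transcription factors, 9 were tested and 0 passed, with a median log2 fold change of 1.84 and 4 of them negative. Tcf3 stood at FPKM 13.0, 39.7 and 1.45 in WT and 213, 20.9 and 0.0475 in cKO. Bcl11a, needed for early B cells in the mouse, had 0.0811, 6.16 and 0.172 in WT and 64.0, 3.10 and 29.6 in cKO. Of the relatives of Ikzf1, Ikzf2 (Helios) had 0.0633, 11.1 and 0.137 in WT and 34.7, 9.10 and 35.6 in cKO, and Ikzf3 (Aiolos), a factor of later B cells, had 34 counts or fewer. Tcf3, Bcl11a and Ikzf2 did not pass (edgeR, adjusted p = 0.752, 0.724 and 0.734). Genes of the remodelling complexes that bind IKAROS had 9 of 14 tested and 0 called, with a median of 1.29 and none of the 9 negative, where 32.1% of all genes were. One of them, the histone-binding gene Rbbp7, had 2.13, 88.7 and 7.62 in WT and 712, 357 and 191 in cKO (edgeR, adjusted p = 0.692).

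Cd52 (ENSMUSG00000000682; chromosome 4, 134082448 to 134095082, minus strand), which encodes a small anchored glycoprotein of lymphocytes and some myeloid cells, reached an FPKM of 1 in all 6 libraries, as Ighm did. Its FPKM was 5.50, 10.4 and 10.2 in WT 1, 2 and 3, on 142, 890 and 67 counts, and 2.22, 98.7 and 15.4 in cKO 1, 2 and 3, on 99, 9332 and 1427 counts. The cKO group held both the lowest and the highest value, so the genotypes overlapped. The log2 fold change was 2.60 (SE 2.36, edgeR, adjusted p = 0.747), 1.18 without cKO 1 (edgeR, adjusted p = 0.896) and 0.32 without cKO 2 (edgeR, adjusted p = 0.974). The nearest profiles were those of Kdm5c at 0.341, Nelfb at 0.427 and Patz1 at 0.436, each highest in cKO 2, and the median gene lay at 2.19. Crybg2, on the opposite strand, overlaps Cd52, and had 8 counts or fewer.

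Markers of other cells were present in the libraries that carried these genes. Over 14 neutrophil and monocyte genes the summed FPKM was 37200 in cKO 2, 859 and 5130 in cKO 1 and 3, and 718 to 29500 in WT, with the calprotectin subunit S100a8 at 22000 in cKO 2, which carried Ikzf1, Cd52 and Vpreb3, and 14900 in WT 1. S100a9 and Camp, also granulocyte genes, were higher in WT 1, at 5960 and 8300, than in cKO 2, at 4800 and 4730. Not all of the list was present, since 5 of the 14 genes stayed under 100 counts in every library, against 54.3% of all genes. Of 3 genes that mark neutrophil precursors, Elane and Mpo had 10 and 48 counts in cKO 2 and Prtn3 had 24019. Of 18 T and NK cell genes, 15 stayed under 100 counts in every library, with the T cell receptor gene Cd3e at 6 counts or fewer, and the summed FPKM was 48.9 to 863 in WT and 82.8 to 185 in cKO. Nkg7, a granule gene of NK cells that other blood cells also express, made up 861 of the 863, in WT 2, the library with Cd79b. Lck, a kinase of T cells, stood at FPKM 41.5, 0.973 and 96.5 in WT 1, 2 and 3 beside 0.286, 0.0797 and 0.0762 in the cKO libraries, so it was high in WT 3 and WT 1, where Ighm, Cd79a and Dntt had their highest FPKM. Erythroid genes summed to 10100 to 22800 in WT and 2060 to 3020 in cKO, and dendritic cell genes to 6.41 to 92.8 and 0.720 to 315. A single gene, Bst2, made up 314 of the 315, in cKO 1, and 73.3 of the 92.8, in WT 2. Of the 8 dendritic cell genes in the table, 6 stayed under 100 counts in every library, against 54.3% of all genes. The part of other cells in the levels of the members was not tested.

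As a set, the 4 tested members had a median log2 fold change of -2.30, against 1.10 for all genes tested. Of them 3 were negative, where 32.1% of all genes were, and those 3 were Ighm, Cd79a and Cd79b, the parts of the receptor. That median turned to 1.43 without WT 1 and WT 3. The members that did not pass the filter, Flt3, Ikzf1, Il7r and Dntt, had values without it of 10.33, 7.23, -0.42 and -3.98, so the set had no common direction.

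**Figure D4:**
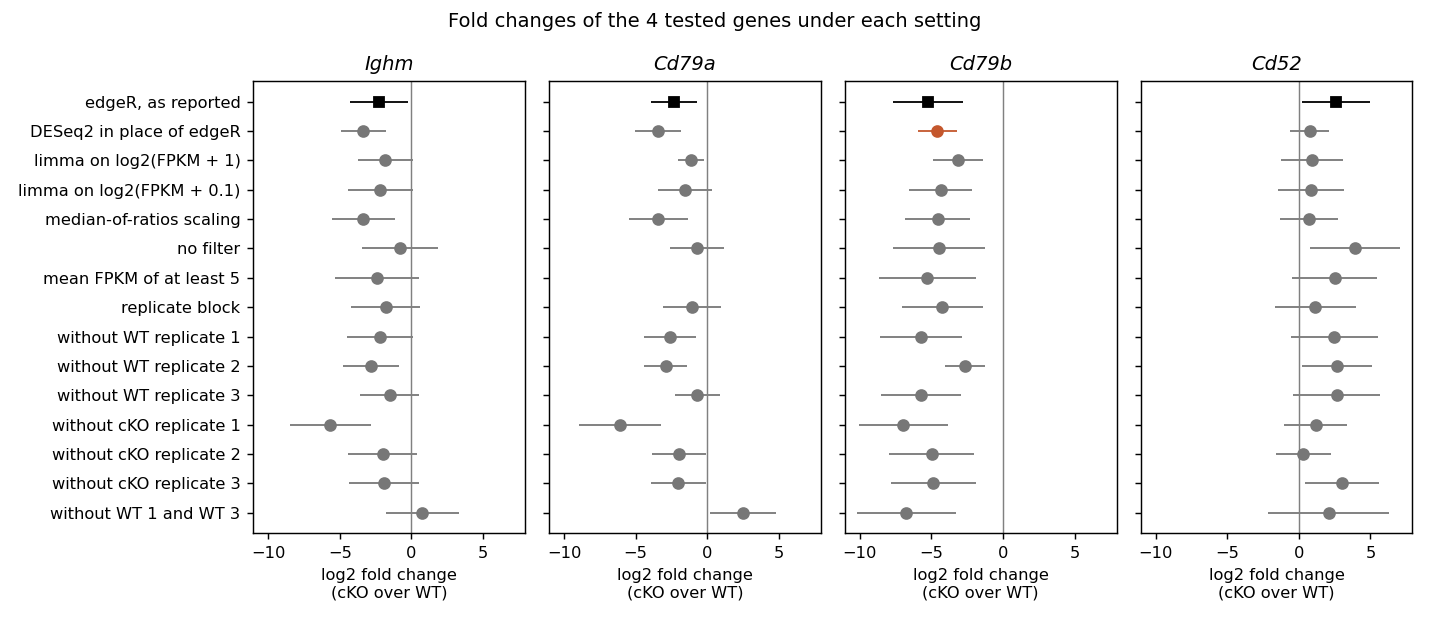
log2 fold change (labelled Piezo1 cKO over WT) of the 4 tested genes, with bars of 1 standard error; the black square is the edgeR value as reported, grey circles are the alternatives, and the orange circle passed an adjusted p of 0.05. The orange circle is Cd79b under DESeq2 at -4.58; Cd79a and Ighm lie right of 0 without WT 1 and WT 3.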

How the data were processed

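Counts and FPKM per gene came from 1 table deposited by the authors. Per the file headers the counts are raw and the FPKM values are scaled to transcript length and depth. The submitters' processing notes list DESeq2, edgeR, StringTie 2.1.6, HISAT2 2.2.1 and cutadapt 1.9 without saying what each did, and GRCm39 as the build. Of 19953 gene identifiers matched to GENCODE M21 (GRCm38), 88.1% had the same start and end, as did all 8 members, so coordinates are read as GRCm38. Low counts were often multiples of 4 (40.2% to 48.8% of counts from 1 to 40 per library), so the precision of low counts is likely overstated. Chromosome 17, which holds Satb1, has 30 genes in the table.

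Genes with an FPKM of at least 1 in at least 3 of 6 libraries (4173) were tested with edgeR 4.0.16 (quasi-likelihood, TMM scaling, genotype as the only term, R 4.3.3, Benjamini-Hochberg adjustment over all 4173). Standard errors (SE) are log2 fold changes divided by the root of the F statistic. limma 3.58.1 on log2(FPKM + 1) and DESeq2 1.42.0 (local dispersion trend) were alternatives. Tests were checked on simulated counts for 4173 genes with 200 changed: at a dispersion of 0.05 edgeR recovered 100% of genes changed 16-fold with 10 false calls and DESeq2 100% with 37, and at a dispersion of 1 edgeR recovered 3% with 0 and DESeq2 71.5% with 82. The biological coefficient of variation here was 1.49. The members and lists were chosen with earlier results of these data known. Named genes were the members, Piezo1, up to 4 genes of each list with the highest mean FPKM, and the 3 nearest profiles of each tested member, leaving out predicted genes. A gene that this rule names is not reported here. Others (Tek, Cd34, Ebf1, Pax5, Igll1, Ms4a1, Cd22, Btk, Syk, Lyn, Ikzf3, Elane, Mpo, Prtn3, Cd3e and Crybg2) were named after their values were seen. Flt3 and Ikzf1 overlap antisense or noncoding genes that are outside the table. Figures were drawn with matplotlib 3.10.9.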

Additional observations from a re-analysis of the deposited data

How the results depend on the processing

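Over all genes edgeR called 0, with 287 at an unadjusted p under 0.05. The count of calls was 298 with DESeq2, 163 without the filter, 2 at a mean FPKM of at least 5 and 1 without WT 1 and WT 3, and 0 under each other alternative. Members called were 0 in edgeR and 1 with DESeq2, which was Cd79b (-4.58), and 0 elsewhere. In simulated data with a dispersion of 1, DESeq2 made 82 false calls beside genes changed 16-fold. That dispersion is lower than in these data, and the simulated counts followed the library totals. The number of false calls therefore does not carry over to these data. The median log2 fold change of the tested members, -2.30, was -3.39 with DESeq2, -3.39 with median-of-ratios scaling, -1.48 with limma on log2(FPKM + 1), and -0.57 without the filter, where 8 members were tested. With a filter at mean FPKM 5 it turned to 2.5, where Flt3 and Ikzf1 entered the fit and Cd79a left it, and to 1.43 without WT 1 and WT 3. With 1 library left out it ran from -5.88 (without cKO 1) to -1.11 (without WT 3). Cd79b kept a negative and Cd52 a positive fold change in all 14 alternatives, and each of Ighm and Cd79a turned in 1, to 0.77 and 2.47 without WT 1 and WT 3. Median-of-ratios scaling moved the median of all genes from 1.10 to 0.52.

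The replicate numbers were not treated as pairs: same-numbered libraries had correlated deviations of 0.126, 0.151 and -0.155 across genes. With the replicate block 0 genes and 0 members were called, 84 genes had an unadjusted p under 0.05, and the median of the tested members was -1.42. The counts of Dntt, Il7r and Cd79a were low, at 89 or fewer, and the part of depth in them was not tested. Dntt and Cd79a had their highest counts, 24 and 89, in WT 3, the shallowest library.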
